A study of Mus musculus with 12 samples.

Results

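The 7 tetraspanin genes Cd9, Cd63, Cd81, Cd82, Cd53, Cd37 and Cd151 were examined, chosen by gene symbol from the 52636 genes of the deposited count table. All 7 had a row and all 7 passed the filter on low counts. The data are bulk RNA-seq counts from mouse lung Cx3cr1+ macrophages in 3 groups of 4 libraries. Saline WT libraries come from Saline-treated mice labelled IL4Ra WT. Bleomycin WT libraries come from Bleomycin-treated mice labelled IL4Ra WT, and bleomycin KO libraries from Bleomycin-treated mice labelled IL4Ra KO. Bleomycin injures the lung and leads to fibrosis, and IL4Ra is the chain through which cells respond to IL-4 and IL-13. Strain, age, sampling time, the way the cells were collected and the cells that carry the deletion are not stated in the labels, and no Saline-treated KO group was analysed here. The labels do not say that libraries of a group came from separate mice, so p-values measure the spread between libraries, which may be technical.

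Tetraspanins are small proteins that cross the membrane 4 times and gather partner proteins, such as integrins, immunoglobulin-family proteins, MHC class II and ADAM proteases, into patches of membrane. In macrophages they are known for roles in adhesion, cell fusion, antigen presentation, endosome traffic and the formation of extracellular vesicles. Cd9, Cd81, Cd63, Cd82 and Cd151 are made by many tissues, whereas Cd53 and Cd37 are largely restricted to leukocytes.

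Cd63 was the only one of the 7 whose levels in the bleomycin libraries did not overlap those in the saline libraries, and its counts stand beside those of a near-identical copy. Its processed pseudogene, Cd63-ps, matches 706 of the 714 coding bases of Cd63 (98.9%), and 380 of the 665 possible stretches of 50 bases, the labelled read length, are identical in it (57.1%). Cd9 also has a pseudogene, Cd9-ps, but only 14 of its 629 stretches (2.23%) are identical there, with 609 identical bases among 643 aligned (94.7%). The first 240 coding bases of both genes are shown for this contrast, from GENCODE vM21 transcripts (GRCm38), with capitals at bases that differ from the pseudogene or have no counterpart in it.
Cd63 coding sequence: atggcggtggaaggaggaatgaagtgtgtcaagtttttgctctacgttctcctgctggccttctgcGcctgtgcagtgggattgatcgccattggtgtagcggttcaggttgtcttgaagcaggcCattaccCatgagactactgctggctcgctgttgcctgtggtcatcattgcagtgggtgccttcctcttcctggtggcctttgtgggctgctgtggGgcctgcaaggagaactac
Cd9 coding sequence: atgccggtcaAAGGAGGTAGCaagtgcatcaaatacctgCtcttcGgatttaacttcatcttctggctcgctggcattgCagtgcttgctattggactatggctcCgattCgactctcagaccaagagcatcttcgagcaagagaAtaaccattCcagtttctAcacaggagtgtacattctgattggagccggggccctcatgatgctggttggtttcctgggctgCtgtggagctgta
The Cd63 run holds 4 capitals and the Cd9 run holds 20.

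The pseudogene row of Cd63 held nearly as many counts as the gene, and that of Cd9 far fewer. Over 12 libraries Cd63-ps held 64382 counts against 66577 for Cd63, which is 96.7%, while Cd9-ps held 10396 against 174638 for Cd9, which is 5.95%. Cd63-ps ran at 252, 130, 115 and 128 CPM in saline WT, at 510, 478, 768 and 1474 CPM in bleomycin WT, and at 500.0, 633, 622 and 583 CPM in bleomycin KO. CPM are counts scaled to a common library size, here with library sizes adjusted by TMM. Cd63-ps was therefore higher in every bleomycin library than in every saline library, as Cd63 was. The labels do not state how reads matching more than 1 place were handled, so the level of Cd63 is uncertain, and fits with the pseudogene counts added to the gene are given beside the others.

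**Figure D1:**
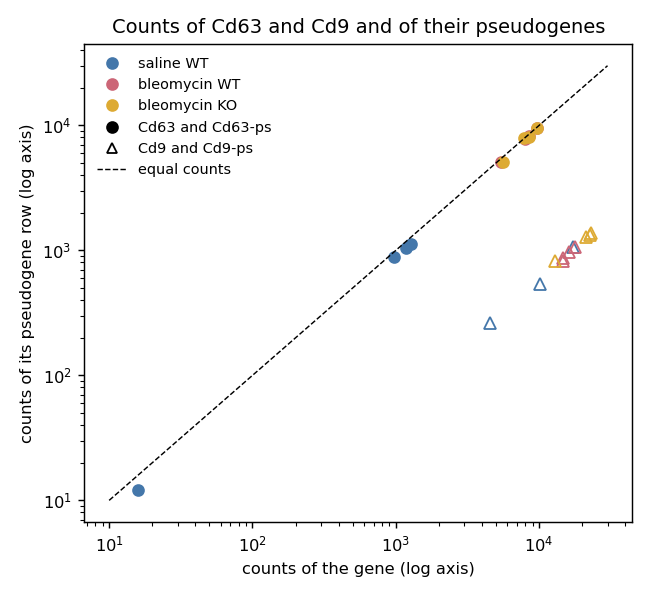
Counts of Cd63 (dots) and Cd9 (triangles) on the x axis against counts of their pseudogene rows on the y axis, both log axes, 1 point per library, coloured by group; the dashed line marks equal counts. The Cd63 points lie near the line and the Cd9 points far below it; saline WT 2, with no Cd9-ps count, has no triangle.

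Among the libraries, 2 stand apart. Saline WT 2 holds 60598 counts, against 3534193 to 18051113 in the other 11, so that 3 counts in it are worth 32.4 CPM. Bleomycin WT 4 has the lowest TMM factor, 0.579, against 0.898 to 1.54 in the others. The members' fold changes and the lists are therefore also given over the 10 other libraries, where saline WT and bleomycin WT have n = 3. Bleomycin WT 4 also had the highest level of Cd9, Cd63, Cd81 and Cd82 of all 12 libraries, and the pair to leave out was chosen with such values known. Calls over 10 libraries therefore depend on that choice and are descriptions beside the fit of 12. Il4ra did not check the genotype label: it ran at 473, 277, 235 and 343 CPM in the libraries labelled KO and at 351, 626, 302 and 138 CPM in bleomycin WT (log2 fold change -0.093, SE 0.58, edgeR adjusted p 0.9998). Counts are summed over the gene and can come from outside a deleted part.

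All 8 macrophage identity genes, among them Lyz2, Cd68 and Cx3cr1, had counts in each group. Their summed levels were 11761 to 31803 CPM in saline WT, 20327 to 42916 CPM in bleomycin WT and 38880 to 59805 CPM in bleomycin KO. Lyz2 made up most of these sums (mean 31033 CPM). Of the 8, 5 were higher and 3 lower in bleomycin WT against saline WT. Cx3cr1 was among the lower, at 196, 940, 136 and 98.1 CPM in saline WT and 53.5, 113, 53.7 and 7.46 CPM in bleomycin WT. It ran at 86.2, 90.6, 91.3 and 121 CPM in bleomycin KO. Its log2 fold change in bleomycin WT was -2.54 (SE 0.79, edgeR adjusted p 0.225). Markers of other cells moved with the groups. The 7 neutrophil markers, led by S100a9 and S100a8, summed to 2613 to 28112 CPM in saline WT, 317 to 1535 CPM in bleomycin WT and 1095 to 1850 CPM in bleomycin KO. The 8 lung epithelial markers, led by Sftpc and Scgb1a1, summed to 1430 to 2342, 130 to 835 and 123 to 557 CPM. The 6 fibroblast markers, led by Col3a1 and Dcn, summed to 43.3 to 143, 199 to 316 and 92.3 to 480 CPM in the same order of groups. The 6 T and NK cell markers, led by Nkg7 and Trbc2, summed to 10.8 to 182, 155 to 331 and 141 to 287 CPM. The 6 genes listed for eosinophils, basophils and mast cells, led by Siglecf and Ccr3, summed to 0 to 124, 3.38 to 52.2 and 32.7 to 44.1 CPM. Siglecf made up most of that sum and is also expressed by alveolar macrophages, so the sum does not mark other cells alone. Only Mcpt8, and only in saline WT, was at 0 in all libraries of a group among the markers of other cells. The part of these cells in the tetraspanin values was not tested, and in bulk samples fewer cells of a type and less RNA per cell cannot be told apart.

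Cd9 was the most abundant of the 7 per length of transcript in every library but saline WT 2. Cd9 supports adhesion and limits macrophage fusion, and its surface protein marks lipid-associated and scar-associated macrophages. It ran at 1109, 195, 1775 and 1460 CPM in saline WT, at 1464, 998, 1440 and 2594 CPM in bleomycin WT, and at 1336, 1483, 1773 and 1461 CPM in bleomycin KO. Apart from the shallow saline WT 2 and the high bleomycin WT 4, the ranges of the 3 groups overlapped. The log2 fold change of bleomycin WT against saline WT was 0.51 (95% interval -0.57 to 1.59, edgeR adjusted p 0.672), and over 10 libraries it was -0.17 (-0.66 to 0.32, adjusted p 0.747). The interval over 10 libraries holds no change of more than 1 on the log2 scale. Platelets also carry Cd9. The 6 platelet and erythroid markers, led by Pf4 and Ppbp, summed to 130 to 639 CPM in saline WT, 92.5 to 617 CPM in bleomycin WT and 102 to 302 CPM in bleomycin KO. Pf4 made up most of these sums, with a mean of 284 CPM against 5.51 CPM for Ppbp, so they mainly follow that gene.

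Cd81, a close relative of Cd9 made by many cell types, was spread widely within groups. It ran at 543, 335, 376 and 586 CPM in saline WT, at 247, 232, 222 and 1047 CPM in bleomycin WT, and at 185, 396, 395 and 432 CPM in bleomycin KO. In bleomycin WT, 3 libraries lay below every saline library and bleomycin WT 4 lay above all of them. The log2 fold change of bleomycin WT against saline WT was -0.081 over 12 libraries (SE 0.53, edgeR adjusted p 0.967), -0.88 without bleomycin WT 4 (adjusted p 0.413) and -1.13 over 10 libraries (SE 0.31, adjusted p 0.158). None of these passed the threshold of 0.05 after Benjamini-Hochberg adjustment. Of the B and plasma cell markers, Jchain ran at 309 CPM and Cd79b at 262 CPM in bleomycin WT 4, against 0 to 85 and 25.3 to 41.3 CPM in the other bleomycin WT libraries. Their part in the high Cd81 of that library was not tested.

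Cd63, the tetraspanin of lysosomes, late endosomes and exosomes, was the member with the largest difference. It ran at 287, 173, 131 and 141 CPM in saline WT, at 537, 496, 784 and 1502 CPM in bleomycin WT, and at 490, 635, 663 and 638 CPM in bleomycin KO. All 8 bleomycin libraries lay above all 4 saline libraries. In bleomycin WT the level was 830 ± 466 CPM (SD, n = 4) against 183 ± 71.4 CPM in saline WT (n = 4), and bleomycin WT 4 was highest. Bleomycin KO, at 606 ± 78.3 CPM (n = 4), was the most even group. The share of tested genes that lay above saline in all libraries was 4.93% for bleomycin WT and 8.17% for bleomycin KO.

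The log2 fold change of Cd63 in bleomycin WT against saline WT was 2.18 (SE 0.46, 95% interval 1.21 to 3.15), with an unadjusted p of 0.000207 and an edgeR adjusted p of 0.147, which did not pass. It passed in DESeq2 (1.92, adjusted p 0.00768), in limma-voom with quality weights (2.10, adjusted p 0.00597) and in edgeR without the low-count filter (2.14, adjusted p 0.0196), and did not in plain limma-voom (2.08, adjusted p 0.105). Over 10 libraries it was 1.67 (SE 0.33, adjusted p 0.0618). With the Cd63-ps counts added to Cd63 it was 2.27 over 12 libraries (adjusted p 0.0996) and 1.73 over 10 (adjusted p 0.0542). The direction was thus the same under each of these fits, and the call was not. For bleomycin KO against saline WT, which shares the saline libraries, the log2 fold change was 1.73 (SE 0.45, adjusted p 0.210), and over 10 libraries it was 1.68 (SE 0.32, adjusted p 0.0491). Neutrophil and epithelial marker sums, given above, were lower in every bleomycin library than in every saline library. Saline WT 1 and bleomycin WT 4 had both the highest Cd63 and the highest epithelial sum of their groups (2342 and 835 CPM). Bleomycin KO 1, with the highest epithelial sum in bleomycin KO (557 CPM), had the lowest Cd63 there. Fibroblast and T and NK cell sums reached higher levels in both bleomycin groups, with overlap except for fibroblasts in bleomycin WT. The part of these cells in the Cd63 values was not tested.

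**Figure D2:**
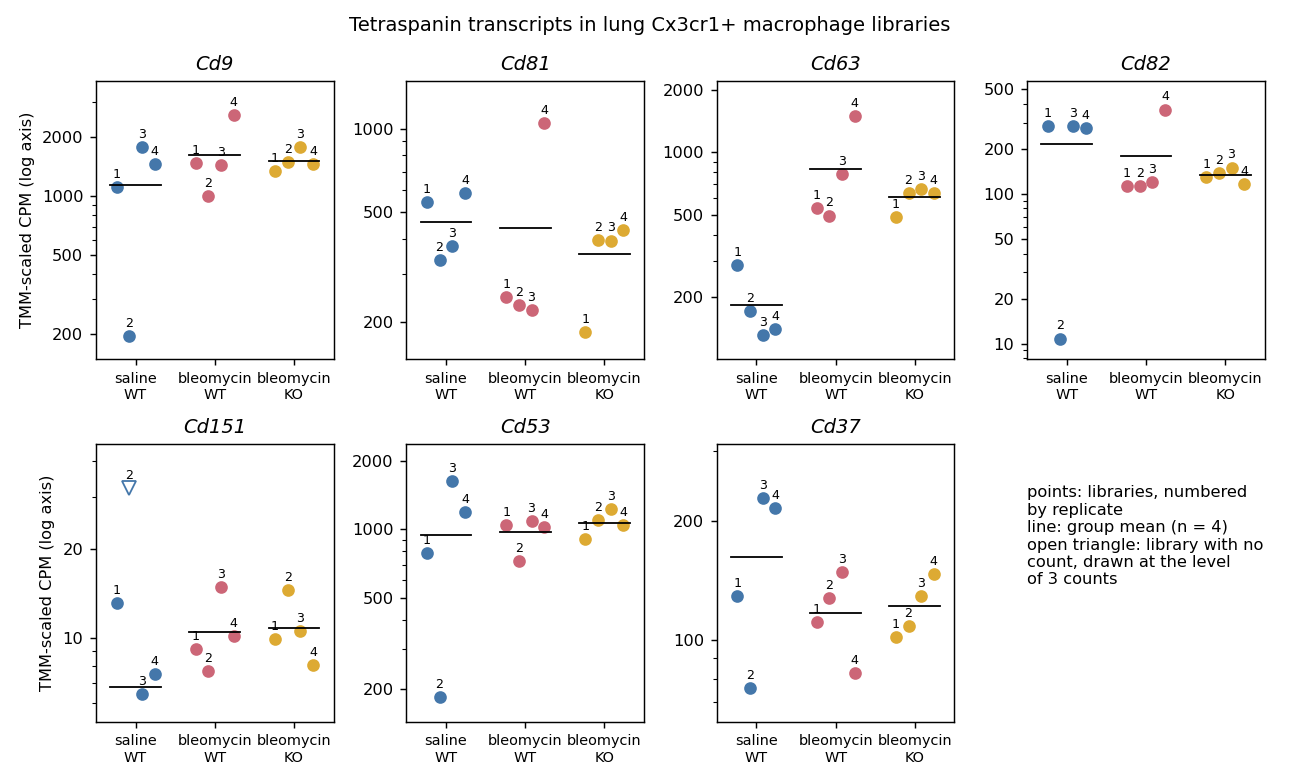
TMM-scaled CPM (y axis, log scale) of the 7 tetraspanins in each of 12 libraries, by group (x axis), numbered by replicate; lines are group means (n = 4), and the open triangle is a library with no count, drawn at the level of 3 counts. The 8 bleomycin points of Cd63 lie above its 4 saline points; bleomycin WT 4 is the highest point for Cd9, Cd63, Cd81 and Cd82.

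Cd82, known as a metastasis suppressor that restrains integrin-dependent migration, had a lower level in 7 of the 8 bleomycin libraries than in the 3 deeper saline libraries. It ran at 286, 10.8, 287 and 278 CPM in saline WT, where the value of 10.8 rests on 1 count in saline WT 2. It ran at 113, 112, 120 and 367 CPM in bleomycin WT and at 130, 139, 150 and 116 CPM in bleomycin KO. The 3 deeper saline libraries agreed closely, as did the first 3 bleomycin WT libraries, and bleomycin WT 4 lay above every saline value. Over 12 libraries the log2 fold change of bleomycin WT against saline WT was -0.31 (SE 0.64, edgeR adjusted p 0.867). Over 10 libraries it was -1.32 (SE 0.18, adjusted p 0.0169), with saline WT at 284 ± 4.87 and bleomycin WT at 115 ± 4.06 CPM (SD, n = 3 each). The 2 libraries left out there are the ones whose Cd82 values stood apart, so the small spread and the call follow from leaving them out and are no independent evidence of a fall. Leaving out bleomycin WT 4 alone gave -0.87 (adjusted p 0.567) and leaving out saline WT 2 alone gave -0.61 (adjusted p 0.501), so the call needs both to be left out. In bleomycin KO against saline WT the log2 fold change was -0.73 over 12 libraries (adjusted p 0.797), and over 10 libraries it was -1.10 (SE 0.16, adjusted p 0.0213), with the same limit. Over 10 libraries 9.43% of genes tested lay below saline in every bleomycin WT library and 7.8% in every bleomycin KO library.

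Cd151, a partner of laminin-binding integrins in epithelium and endothelium, was the least abundant member. It ran at 13.1, 0, 6.46 and 7.53 CPM in saline WT, at 9.19, 7.72, 14.9 and 10.1 CPM in bleomycin WT, and at 9.92, 14.6, 10.5 and 8.09 CPM in bleomycin KO. The 0 in saline WT 2 allows a level of up to 32.4 CPM, counting error only, which is above every other Cd151 value. The groups overlapped, and bleomycin WT against saline WT gave a log2 fold change of 0.39 (95% interval -1.08 to 1.85, edgeR adjusted p 0.841). An antisense-strand transcript, Gm10575, overlaps Cd151 and holds counts equal to 14.4% of it. The library kit does not mark strand, so the counts of the pair cannot be told apart.

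Cd53, found on nearly all leukocytes, was the second most abundant member per length in saline WT and bleomycin KO. It ran at 785, 184, 1637 and 1187 CPM in saline WT, at 1041, 728, 1090 and 1024 CPM in bleomycin WT, and at 909, 1098, 1230 and 1049 CPM in bleomycin KO. Both bleomycin groups fell inside the saline range. The log2 fold change of bleomycin WT against saline WT was 0.025 (95% interval -1.0 to 1.05, edgeR adjusted p 0.989), and -0.35 over 10 libraries (-0.94 to 0.23, adjusted p 0.567). Its sign turned also with upper-quartile scaling (-0.34), so no direction is given.

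Cd37, a leukocyte tetraspanin most prominent on B cells and dendritic cells, was lower on average after bleomycin without passing a test. It ran at 129, 75.7, 227 and 215 CPM in saline WT, at 111, 128, 148 and 82.5 CPM in bleomycin WT, and at 102, 109, 129 and 147 CPM in bleomycin KO. The groups overlapped through saline WT 1 and 2. The log2 fold change was -0.49 in bleomycin WT against saline WT (SE 0.45, edgeR adjusted p 0.642) and -0.58 over 10 libraries (SE 0.25, adjusted p 0.343). Bleomycin KO against saline WT gave -0.44 (adjusted p 0.822), and -0.66 over 10 libraries (adjusted p 0.208). The 5 dendritic cell markers, led by Ccr7 and Flt3, summed to 10.8 to 782 CPM in saline WT, 225 to 451 CPM in bleomycin WT and 302 to 381 CPM in bleomycin KO.

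Counted together in bleomycin WT against saline WT, 0 of the 7 passed in edgeR over 12 libraries, where 0.024% of 16679 genes did. At an unadjusted p under 0.05 the count was 1 of 7, Cd63, against 14.7% of all genes. Over 10 libraries 1 of 7, Cd82, passed, against 0.431% of 18812 genes. The median log2 fold change of the 7 was 0.025, with 4 higher and 3 lower, and the median of all genes tested was 0.084. Over 10 libraries the median of the 7 was -0.35, with 2 higher and 5 lower, beside -0.14 for all genes, and 1 was higher and 3 were lower at an unadjusted p under 0.05 (14.0% of all genes in either direction). For bleomycin KO against saline WT the counts were 0 of 7 over 12 libraries (0.018% of all genes) and 2 of 7, Cd63 and Cd82, over 10 libraries (0.643%). At an unadjusted p under 0.05 over 12 libraries the count there was 1 of 7, Cd63, against 9.03%. DESeq2 called 1 member, Cd63, in the first of these comparisons (3.73% of all genes) and 0 in the second (2.41%). With quality weights limma-voom called 1, Cd63, in each (1.91% and 1.39% of all genes), and edgeR without the filter called 1 in the first (1.91%).

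Between the bleomycin groups, the comparison that bears on the Il4ra deletion, no tetraspanin passed and 0 did so at an unadjusted p under 0.05, with either library set in edgeR and also 0 called in DESeq2. The share of all genes called was 0.0%, and 3.88% had an unadjusted p under 0.05 over 12 libraries. Cd63 had a log2 fold change of -0.45 in bleomycin KO against bleomycin WT (95% interval -1.37 to 0.47) and 0.012 over 10 libraries (-0.66 to 0.68). Cd82 gave -0.41 (-1.77 to 0.95) over 12 libraries and 0.23 (-0.14 to 0.59) over 10. Cd81 gave -0.31 (-1.44 to 0.82) and 0.60 (-0.042 to 1.25), the member nearest to a difference over 10 libraries, with an unadjusted p of 0.0638. The signs of all 3 turned when the 2 libraries were left out. Cd9 (-0.10), Cd53 (0.14), Cd37 (0.051) and Cd151 (0.042) were near 0 over 12 libraries, with an edgeR adjusted p of 0.9998 for all 7.

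**Figure D3:**
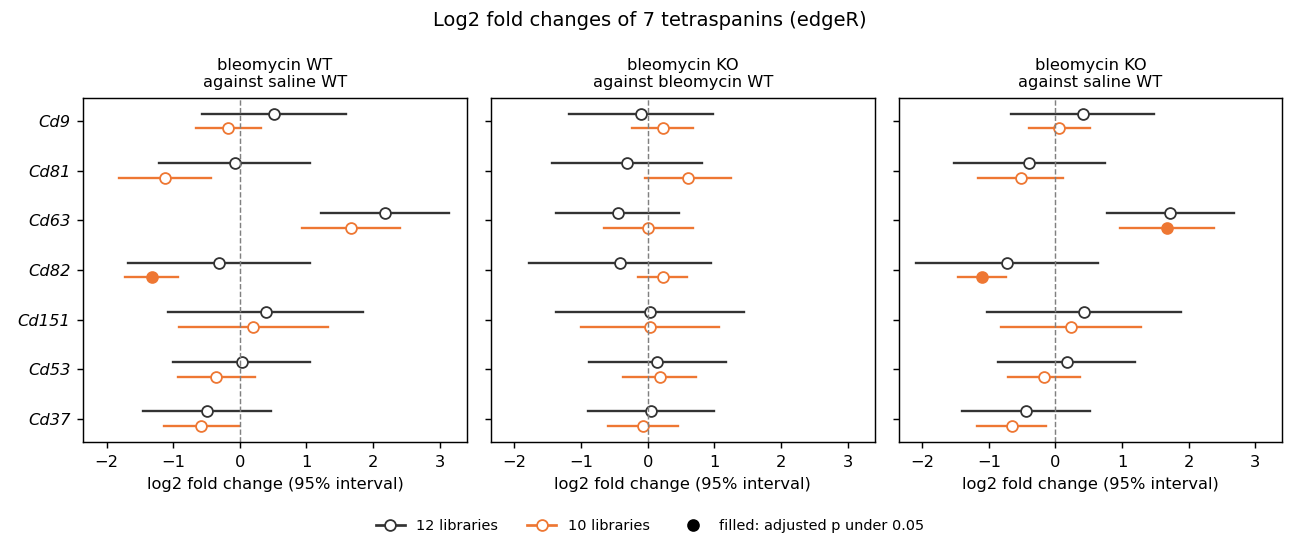
Log2 fold changes (x axis) with 95% intervals of the 7 tetraspanins (y axis) in 3 comparisons, over 12 libraries (black) and over the 10 without saline WT 2 and bleomycin WT 4 (orange); filled points have an edgeR adjusted p under 0.05, which over 10 libraries depends on the choice of libraries. The filled points are Cd82 in both comparisons with saline and Cd63 in bleomycin KO against saline WT, all over 10 libraries.

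Levels of the members were compared with each other as CPM per kilobase of exon. In bleomycin KO the order was Cd9 (1232 ± 150 CPM per kb, SD, n = 4), Cd53 (615 ± 76.1), Cd63 (418 ± 54.0), Cd81 (230 ± 73.3), Cd82 (69.2 ± 7.50), Cd37 (34.6 ± 5.82) and Cd151 (5.55 ± 1.41). No neighbours in that order overlapped. In saline WT the order was Cd9 (924 ± 556), Cd53 (544 ± 354), Cd81 (300.1 ± 80.2), Cd63 (126 ± 49.3), Cd82 (111 ± 70.6), Cd37 (46.1 ± 20.6) and Cd151 (3.50 ± 2.78), and among neighbours only Cd81 against Cd63 and Cd37 against Cd151 did not overlap. In bleomycin WT Cd63 (572 ± 321) and Cd53 (557 ± 94.2) overlapped and stood behind Cd9 (1322 ± 555).

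Cd63 thus took a higher place among the 7 in bleomycin libraries than in the saline libraries other than saline WT 2. It ranked 4, 3, 5 and 5 in the saline libraries, 3, 3, 3 and 2 in bleomycin WT and 3 in all 4 bleomycin KO libraries. Cd63 made up 8.82 ± 7.34% of the summed level per kb in saline WT (5.44 ± 3.48% without saline WT 2, n = 3), 19.3 ± 3.03% in bleomycin WT and 16.1 ± 0.73% in bleomycin KO (SD, n = 4 each). Cd9 made up 41.0 ± 10.8%, 46.2 ± 2.15% and 47.4 ± 2.26%. The share of Cd63 was 3.08 to 18.96% in saline libraries and 15.3 to 22.3% in bleomycin libraries, overlapping through saline WT 2. The share of Cd82 was 4.65 ± 2.65% in saline WT, 3.03 ± 0.80% in bleomycin WT and 2.68 ± 0.33% in bleomycin KO. These shares are descriptions, with no test, and for Cd63 they carry the doubt over pseudogene reads.

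**Figure D4:**
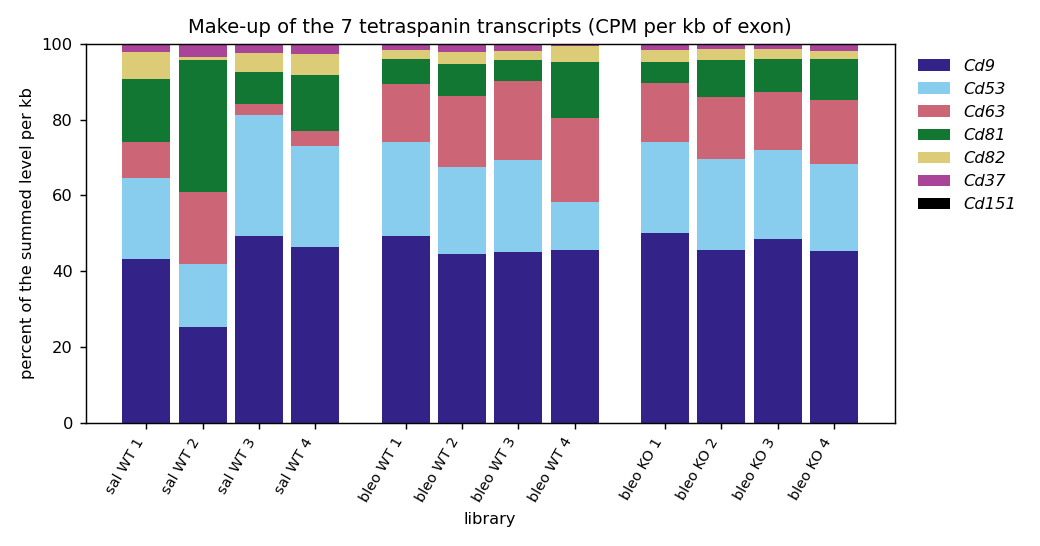
Percent of the summed level per kb of exon (y axis, from 0) held by each of the 7 tetraspanins, 1 bar per library (x axis). The Cd63 part takes 15.3% to 22.3% in bleomycin libraries and 3.08% to 9.43% in saline libraries other than saline WT 2.

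The members did not move as a block across libraries. Over the 11 libraries other than saline WT 2, the Pearson correlation of log2 CPM was 0.80 for Cd81 and Cd82 and -0.83 for Cd63 and Cd37. It was 0.61 for Cd9 and Cd53, and 0.93 when bleomycin WT 4 was also left out. For Cd63 and Cd82 it was -0.33, and -0.88 without bleomycin WT 4. The libraries share groups and depth differences, and these values are descriptions.

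The genes whose pattern was most like each member were found among 9290 genes of at least 10 CPM over the same 11 libraries. For Cd63 they were Cd63-ps (r = 0.999), the macrophage elastase gene Mmp12 (0.988) and Tmem37 (0.980). For Cd9 they were Cd9-ps (0.981), Srp14 (0.949) and Casp1 (0.948). For Cd81 they included Timd4, a phosphatidylserine receptor gene of resident macrophages (0.976), and Tfam (0.915). For Cd82 they were Mettl9 (0.980), Mfap1b (0.966) and Cryab (0.965), and for Cd53 Arhgdib (0.949), Snap23 (0.927) and Clec4a3 (0.926). For Cd37 they were Clec4a1 (0.916), Eno3 (0.906) and another tetraspanin, Tspan7 (0.892). For Cd151 they were Gm7984 (0.868), Rnase4 (0.83) and Nudc-ps1 (0.827). With saline WT 2 included, at most 1 of the 3 names remained for any member.

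Of 24 other tetraspanins listed, 21 were tested, and the 5 with the highest mean CPM were Tspan13 (186 CPM), Tspan14 (152 CPM), Tspan31 (148 CPM), Tspan3 (73.7 CPM) and Tspan4 (56.9 CPM). In bleomycin WT against saline WT, 0 of 21 passed in edgeR, 8 were higher and 13 lower, and the median log2 fold change was -0.30 beside 0.084 for all genes. At an unadjusted p under 0.05, 2 were higher and 3 lower, where 14.7% of all genes passed that level. Over 10 libraries 9 were higher and 12 lower, with a median of -0.76 beside -0.14. Tspan7 was the exception in other tools, passing in DESeq2 and in limma-voom with quality weights in both comparisons with saline. It ran at 18.0, 119, 54.5 and 56.3 CPM in saline WT, at 5.99, 7.35, 16.7 and 1.60 CPM in bleomycin WT and at 13.7, 7.65, 10.2 and 8.20 CPM in bleomycin KO. Each saline library lay above each bleomycin library, and the log2 fold change in bleomycin WT was -2.87 (SE 0.78, edgeR adjusted p 0.207). Tspan7 is also expressed by endothelium, whose 6 markers, led by Calcrl and Pecam1, summed to 54.0 to 319 CPM in saline WT, 70.6 to 705 CPM in bleomycin WT and 70.0 to 132 CPM in bleomycin KO. Over 10 libraries these sums were 203 to 319, 70.6 to 121 and 70.0 to 132 CPM. All 6 markers were then lower in both bleomycin groups than in saline WT. The 2 libraries left out went the other way. Saline WT 2 had the highest Tspan7 of all 12 libraries and the lowest endothelial sum (54.0 CPM). Bleomycin WT 4 had the lowest Tspan7 and the highest sum (705 CPM). Over 12 libraries 2 of the 6 markers were higher and 4 lower in bleomycin WT, and all 6 were lower in bleomycin KO. The part of endothelium in the Tspan7 values was not tested.

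Tspan3 and Tspan4 were the other tetraspanins higher at an unadjusted p under 0.05. Tspan4, known from migrasomes, the retraction-fibre vesicles of moving cells, ran at 18.2, 0, 22.1 and 40.0 CPM in saline WT, at 88.5, 63.0, 144 and 20.4 CPM in bleomycin WT and at 53.6, 89.4, 50.0 and 93.7 CPM in bleomycin KO. Its log2 fold change was 1.78 in bleomycin WT against saline WT (SE 0.69, edgeR adjusted p 0.278) and 1.86 over 10 libraries (adjusted p 0.0972). Bleomycin WT 4 was the only bleomycin library inside the saline range. Against bleomycin WT, the list stood at 13 higher and 8 lower in bleomycin KO, with 0 at an unadjusted p under 0.05. Against saline WT, bleomycin KO had 9 of the 21 higher and 12 lower, 0 passed in edgeR, and the median log2 fold change was -0.55 beside 0.040 for all genes.

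Among 17 listed partners of tetraspanins, such as Itgb1, Cd44 and H2-Ab1, 0 passed in bleomycin WT against saline WT, 12 were higher and 5 lower, and the median log2 fold change was 0.54 beside 0.084 for all genes. Over 10 libraries 9 were higher and 8 lower, with a median of 0.20 beside -0.14. The counts of higher and lower partners thus depended on the 2 libraries left out, while their median lay above that of all genes in both sets. The 2 with the smallest p were Adam10 and Adam17, membrane proteases that shed surface proteins. Adam10 ran at 112, 0, 151 and 115 CPM in saline WT and at 216, 352, 256 and 496 CPM in bleomycin WT (log2 fold change 1.72, SE 0.65, edgeR adjusted p 0.268). Adam17 had a log2 fold change of 1.40 (SE 0.55, adjusted p 0.279). For both, the lowest bleomycin WT library exceeded the highest saline library, with log2 fold changes of 1.10 and 0.83 over 10 libraries. Between the bleomycin groups 0 partners passed, with 8 higher and 9 lower in bleomycin KO.

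Of 12 genes of vesicle formation and release, 8 were higher and 4 lower in bleomycin WT against saline WT, 0 passed, and the median log2 fold change was 0.87 beside 0.084 for all genes. Over 10 libraries the counts were again 8 and 4, and the median was 0.50 beside -0.14. Sdcbp encodes syntenin, the adaptor that binds Cd63 in exosome formation. It ran at 727, 43.2, 963 and 663 CPM in saline WT, at 1341, 1082, 1394 and 2488 CPM in bleomycin WT and at 1261, 1405, 1466 and 1317 CPM in bleomycin KO. Every bleomycin library lay above every saline library, with a log2 fold change of 1.38 in bleomycin WT (SE 0.59, edgeR adjusted p 0.306) and 0.68 over 10 libraries (adjusted p 0.161). Rab27a, a small GTPase of vesicle docking, went the other way, with a log2 fold change of -2.13 (SE 0.83, adjusted p 0.278). Rab27a ran at 53.5, 0, 86.5 and 42.9 CPM in saline WT and at 9.19, 15.9, 18.3 and 1.24 CPM in bleomycin WT, below the saline libraries other than saline WT 2. Over 10 libraries it was -2.10 (SE 0.39, adjusted p 0.0533). Between the bleomycin groups the 12 stood at 6 higher and 6 lower, with 0 passed.

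Promoter windows of the members were read from RefSeq (GRCm38.p6) over 250 bases before each annotated start, and all 7 matched. The windows of Cd63 and Cd82 are shown because their log2 fold changes against saline WT had opposite signs. Over 12 libraries these were 2.18 and -0.31 in bleomycin WT. Neither passed in edgeR, and for Cd82 the groups overlapped. The Cd37 window is shown because it belongs to a leukocyte-restricted member. Capitals mark matches on either strand to 6 motifs: E-box (CACGTG), PU.1 (GAGGAAGT), STAT6 (TTC, any 4 bases, GAA), AP-1 (TGANTCA), GC box (GGGCGG) and TATA box (TATAAA). The Cd82 window is that of the most upstream of its 4 starts.
Cd63 promoter, chr10:128909095-128909344, plus strand: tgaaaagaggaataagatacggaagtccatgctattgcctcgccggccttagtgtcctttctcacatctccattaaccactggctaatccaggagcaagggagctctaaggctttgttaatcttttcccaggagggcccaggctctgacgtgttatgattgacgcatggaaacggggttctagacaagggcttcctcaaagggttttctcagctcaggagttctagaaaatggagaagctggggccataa
Cd82 promoter, chr2:93462951-93463200, minus strand: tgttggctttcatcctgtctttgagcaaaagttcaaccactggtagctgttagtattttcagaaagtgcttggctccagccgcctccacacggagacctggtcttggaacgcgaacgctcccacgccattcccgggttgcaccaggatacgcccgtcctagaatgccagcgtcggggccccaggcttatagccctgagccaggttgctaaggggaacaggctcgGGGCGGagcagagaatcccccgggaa
Cd37 promoter, chr7:45238840-45239089, minus strand: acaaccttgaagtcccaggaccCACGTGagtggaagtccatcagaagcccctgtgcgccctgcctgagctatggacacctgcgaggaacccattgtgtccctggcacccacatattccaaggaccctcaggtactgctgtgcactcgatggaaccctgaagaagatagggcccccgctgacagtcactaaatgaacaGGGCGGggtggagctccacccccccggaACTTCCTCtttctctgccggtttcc
The Cd63 window held none of these letters. That window lies inside the annotated span of Cd63, which begins at 128900989, and the bases before that position were not read. The printed Cd37 window likewise lies inside the annotated span of Cd37, a minus-strand gene whose span reaches 45239115. The bases beyond that position were not read. The printed Cd82 window lies partly inside the span of Cd82, which reaches 93463140. The printed Cd82 window held 1 GC box, and GC boxes were also found before starts of Cd9, Cd81, Cd37 and Cd151, against 32.7% of 32851 windows of this length. The PU.1 letters lay 25 bases before the start of Cd37 and before 1 other start of Cd82 (2.44% of windows), the E-box in Cd37 (6.02%) and the STAT6 letters in Cd53 (5.85%). AP-1 letters (6.75% of windows) and a TATA box (12.4%) were in none of the members' windows. A match describes letters only.

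In GRCm38 all 7 are protein-coding genes. Cd9 (ENSMUSG00000030342) lies on chromosome 6 from 125460266 to 125494791, Cd63 (ENSMUSG00000025351) on chromosome 10 from 128900989 to 128912822, and Cd82 (ENSMUSG00000027215) on chromosome 2 from 93419111 to 93463140. Cd53 (ENSMUSG00000040747) lies on chromosome 3 from 106759921 to 106790149. Chromosome 7 carries 3 of them: Cd37 (ENSMUSG00000030798) from 45233632 to 45239115, Cd151 (ENSMUSG00000025510) from 141467392 to 141471473 and Cd81 (ENSMUSG00000037706) from 143052739 to 143067934. Genes that overlap Cd9, Cd81, Cd82 and Cd37 held counts of at most 1.36% of the member.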

How the data were processed

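RNA of Cx3cr1+ macrophages from mouse lung was amplified with the SMART-Seq v4 kit, which does not mark strand, and read as single 50-base reads, per the labels' protocols. The submitters' processing notes name GSNAP, Partek and limma, and the builds GRCm38 and mm10, without versions or the handling of reads matching several places. The deposited values are raw counts that the authors made for 52636 Ensembl genes, of which 11872 have no count. The deposited gene table gives exonic sizes. Total counts were 60598 to 18051113 per library. All 66 library pairs differed beyond sampling noise (lowest chi-square per degree of freedom 18.6), so none was treated as a duplicate.

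All 12 libraries were fitted with edgeR 4.0.16 (R 4.3.3) by group alone: filterByExpr (16679 genes), TMM, robust quasi-likelihood F test, Benjamini-Hochberg adjustment over all genes, threshold 0.05. It was tested on simulated data. The common biological coefficient of variation was 0.862. The standard error is the log2 fold change over the square root of F. Alternatives were DESeq2 1.42.0, limma-voom 3.58.1 with and without quality weights, other scalings (RLE, upper quartile), no filter, only the groups compared, a replicate block, leaving out each library, and 10 libraries (18812 genes). Adding pseudogene counts to Cd63 and Cd9 was chosen after seeing the data. Coding sequences were aligned locally to the pseudogene transcripts.

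Named genes are the 7 members, Il4ra, the 5 most abundant other tetraspanins with any that passed a test, the 2 smallest p of the partner and vesicle lists, the 2 most abundant markers of each other cell type, and the 3 genes most like each member (log2 CPM with a prior count of 2). Partners named as examples, Mcpt8 and Cx3cr1 were chosen after their values were seen. Members and lists were chosen with earlier results of these data known, and so were the 2 libraries left out together. The series' design text describes another experiment and was not used. Some genes that the naming rule covers are not reported here.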

Additional observations from a re-analysis of the deposited data

Results flagged for a closer look

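In groups of 4, a library was picked out when its gap to the nearest other library, divided by the range of the group, was above Dixon's critical value. Of 27 groups examined 6 met this, and chance gives about 1 in 20. Bleomycin WT 4 was far above the other 3 bleomycin WT libraries for Cd81 (1047 CPM) and Cd82 (367 CPM). Saline WT 2 was far below for Cd82, at 10.8 CPM, which is 1 count. Bleomycin KO 1 was lowest in its group for Cd63 (490 CPM) and for Cd81 (185 CPM). Saline WT 1 was highest in its group for Cd63-ps (252 CPM). The Cd63-ps row is outside the member comparisons and held counts equal to 96.7% of those of Cd63 over all libraries.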

How the results depend on the processing

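Of the members' log2 fold changes under alternatives, 401 kept their direction and side of the threshold. In bleomycin WT against saline WT the count of members called rose from 0 to 1 without the low-count filter, in DESeq2 and in limma-voom with quality weights (Cd63 in each), and to 1 over 10 libraries with or without pseudogene counts added (Cd82). With bleomycin KO against saline WT it rose from 0 to 1 with quality weights (Cd63) and to 2 over 10 libraries with or without pseudogene counts (Cd63 and Cd82). The other tetraspanins went from 0 to 1 (Tspan7) in DESeq2 and with quality weights in both comparisons. Leaving out single libraries gave counts of 0 to 0 throughout. Against the 0.084 of TMM, upper-quartile scaling put the median log2 fold change of all genes in bleomycin WT against saline WT at -0.31, and DESeq2 size factors put it at -0.095.

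Signs turned in 44 values, none of them called; the cause was not tested. In bleomycin WT against saline WT, Cd9 was -0.17 over 10 libraries with or without pseudogene counts. Cd53 was -0.12 with DESeq2 size factors, -0.34 with upper-quartile scaling, -0.13 in DESeq2, -0.13 in limma-voom, -0.044 with quality weights, -0.0051 with only the groups compared and -0.35 over 10 libraries. In bleomycin KO against saline WT, Cd53 was -0.11 with upper-quartile scaling and -0.17 over 10 libraries. In bleomycin KO against bleomycin WT, Cd9 was 0.031 with upper-quartile scaling, 0.044 in limma-voom, 0.12 with quality weights and 0.23 over 10 libraries with or without pseudogene counts. In the same comparison Cd63 was 0.012 over 10 libraries and 0.0097 with pseudogene counts, and Cd81 was 0.060 in limma-voom, 0.48 with quality weights and 0.60 over 10 libraries. Cd82 was 0.18 with quality weights and 0.23 over 10 libraries, Cd37 was -0.045 and -0.074, and Cd151 was -0.14 with quality weights. Leaving out single libraries, the ranges that crossed 0 in that comparison were -0.26 to 0.21 for Cd9, -0.52 to 0.58 for Cd81, -0.57 to 0.21 for Cd82, -0.10 to 0.18 for Cd37 and -0.14 to 0.26 for Cd151. They were -0.88 to 0.16 for Cd81 and -0.25 to 0.52 for Cd53 in bleomycin WT against saline WT, and -0.10 to 0.67 for Cd53 in bleomycin KO against saline WT.

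Same-numbered libraries did not deviate together (correlations of -0.20 to 0.07), so the numbers do not pair them. With a replicate block the count of members and of other tetraspanins called was 0 in each comparison, Cd63 was 2.10 in bleomycin WT against saline WT (adjusted p 0.590), and Cd9 was 0.024 in bleomycin KO against bleomycin WT, where its sign turned.

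Depth limits saline WT 2, where 3 counts are 32.4 CPM; Cd151, at most 14.9 CPM in any library, was not detectable there.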
